A study of Homo sapiens with 8 samples.

Results

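Hypoxia-inducible factors (HIFs) are transcription factors made of an oxygen-labile α subunit and the stable partner ARNT, and in low oxygen they bind short DNA motifs near their target genes. Many of the best known targets encode enzymes of glucose metabolism, but others encode growth factors and ligands, membrane receptors, ubiquitin ligase adaptors, mitochondrial proteins and further transcription factors. The genes described here are 32 HIF or hypoxia targets outside glucose metabolism, out of 61517 genes in the deposited table. They were chosen by symbol, and every symbol matched a single row. The list was drawn up with results of these libraries in view. Differences among the oxamate, hypoxia and normoxia libraries are therefore given as description. Calls in them are counted once, beside the share over all genes, and tests are read only where the lactate libraries are compared. Those tests reuse oxamate or hypoxia libraries that were in view, so they are not independent of the choice.

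The libraries are poly(A)-selected RNA of KYSE150, an established human esophageal squamous cell carcinoma line, in 4 groups of 2. One group was kept in hypoxia with an addition labelled NALA, read here as sodium lactate from the treatment protocol, on top of sodium oxamate, which inhibits lactate dehydrogenase. Another was kept in hypoxia with oxamate alone, another in hypoxia without drug, and the last in normoxia without drug. The labels used here state no oxygen level, dose or duration. The series title places the work in a study of HIF-1α lactylation in hypoxia. Total counts ran from 21845676 to 29406061 per library. Counts of replicate libraries differed beyond sampling noise. The chi-square over its degrees of freedom was 4.83 with lactate and oxamate, 2.03 with oxamate, 2.11 in hypoxia and 1.85 in normoxia. The spread was thus largest in the lactate group, and all groups share one fit. Standard errors and p-values of comparisons with that group may therefore be too small. Whether both libraries of a group came from different cultures is not stated, so p-values reflect library-to-library spread, which may be technical. Of 12 squamous epithelial markers, all had counts in some library, and KRT5 and TP63 were counted in all 8. SOX2 was low throughout, with 0 and 0 counts with lactate and oxamate, 1 and 1 with oxamate, 12 and 10 in hypoxia and 9 and 6 in normoxia. The sum of the 12 markers ran from 3230 to 4810 CPM (counts scaled to a common library total). It was highest with oxamate, at 4810 and 4800 CPM. Most of that sum was KRT5, with 90118 and 86228 counts with oxamate and 28675 and 27570 in hypoxia. KRT6A, KRT14, KRT17, KRT13 and EPCAM were also higher with oxamate than in hypoxia. TP63 was lower, at 2090 and 1951 counts with oxamate and 7221 and 7014 in hypoxia, as were SOX2, ITGB4, DSG3, PKP1 and CDH1. Of 10 leukocyte markers, 7 had counts, and the list summed to 88.7 and 91.4 CPM with lactate and oxamate, 76.3 and 75.8 CPM with oxamate, 128 and 121 CPM in hypoxia and 39.9 and 44.0 CPM in normoxia. Nearly all of these counts were CD68, a lysosomal gene, and MS4A1 and FCGR3A had 0 counts in every library. LYZ had 33 counts in replicate 1 with lactate and oxamate and at most 1 in any other library. PTPRC and the endothelial marker PECAM1 had 3 counts each in that library and 0 elsewhere. Fibroblast markers (4 of 7 with counts, COL3A1, DCN and THY1 at 0) summed to 0.732 and 1.03 CPM with lactate and oxamate, 0.714 and 1.24 CPM with oxamate, 8.69 and 8.97 CPM in hypoxia and 2.69 and 3.02 CPM in normoxia. Nearly all of these fibroblast marker counts were COL1A1, with 230 and 222 counts in hypoxia. The sum was thus highest in hypoxia, as were many of the genes described here. Endothelial markers (5 of 6 with counts, KDR at 0) summed to 0.595 and 0.551 CPM with lactate and oxamate, 0.714 and 1.1 CPM with oxamate, 2.45 and 1.78 CPM in hypoxia and 1.67 and 1.45 CPM in normoxia. Mitochondrial genes took 2.14% and 2.09% with lactate and oxamate, 2.45% and 2.44% with oxamate, 4.78% and 4.61% in hypoxia and 5.74% and 5.73% of counts in normoxia. The part of these differences in the results below was not tested. In bulk RNA, fewer cells that express a gene and less RNA per cell cannot be told apart.

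HIFs bind a core motif with the letters ACGTG or GCGTG. Promoter windows of 300 bases around an annotated gene start, from 250 bases before it to 50 after it, were matched by symbol in RefSeq sequences of build GRCh38.p14 for 24 of the 32 genes. A core motif on either strand was found in 17 of 24 windows (70.8%, exact Clopper-Pearson 95% interval 48.9% to 87.4%), against 13213 of 27305 windows of all genes (48.4%). Without matches that lie inside CACGTG, the E-box that reads the same on both strands and is also bound by other factors, the shares were 62.5% and 45.2%. CACGTG itself was in 7 of 24 windows (29.2%) and in 7.43% of all windows. The 24 windows had a median GC content of 69.5%, against 58.3% for all windows, and the part of base composition in these shares was not tested. The window sits at one annotated start per gene, and which start was used in these cells was not measured. The sequences below are shown 5′ to 3′ on the strand of the gene, with core motifs in capitals. They belong to ANKRD37 (chr4:185396591-185396890, plus strand) and WSB1 (chr17:27293864-27294163, plus strand), whose levels with lactate reached those of hypoxia or passed them. They are followed by KCTD11 (chr17:7351912-7352211, plus strand), which lost most of its level with oxamate and with lactate was still 14.7-fold below hypoxia. Last come PAM (chr5:102755055-102755354, plus strand), which fell further with lactate, and AHNAK2 (chr14:104978325-104978624, minus strand), which did not pass between lactate and oxamate.
ANKRD37: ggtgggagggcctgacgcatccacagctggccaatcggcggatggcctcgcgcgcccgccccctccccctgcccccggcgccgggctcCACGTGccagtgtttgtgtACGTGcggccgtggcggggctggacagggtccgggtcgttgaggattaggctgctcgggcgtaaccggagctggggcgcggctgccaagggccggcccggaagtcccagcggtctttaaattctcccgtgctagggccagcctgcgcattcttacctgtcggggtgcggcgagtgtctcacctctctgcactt
WSB1: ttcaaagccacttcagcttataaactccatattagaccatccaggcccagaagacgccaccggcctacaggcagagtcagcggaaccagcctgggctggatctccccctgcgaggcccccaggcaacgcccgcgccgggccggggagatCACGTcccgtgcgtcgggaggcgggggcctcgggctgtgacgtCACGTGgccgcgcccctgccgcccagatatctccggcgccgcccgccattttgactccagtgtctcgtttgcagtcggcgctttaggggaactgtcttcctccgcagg
KCTD11: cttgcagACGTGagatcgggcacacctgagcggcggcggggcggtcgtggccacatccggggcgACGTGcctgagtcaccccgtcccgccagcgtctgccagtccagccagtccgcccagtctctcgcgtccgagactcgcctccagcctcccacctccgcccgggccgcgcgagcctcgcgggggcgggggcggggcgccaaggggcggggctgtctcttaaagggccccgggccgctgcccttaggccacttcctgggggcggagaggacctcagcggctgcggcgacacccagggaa
PAM: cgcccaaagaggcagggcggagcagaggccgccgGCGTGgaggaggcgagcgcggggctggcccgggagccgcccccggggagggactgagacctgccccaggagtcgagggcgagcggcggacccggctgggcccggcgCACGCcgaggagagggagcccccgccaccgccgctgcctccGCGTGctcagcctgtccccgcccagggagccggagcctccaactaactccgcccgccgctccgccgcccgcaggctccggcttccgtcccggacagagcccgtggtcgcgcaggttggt
AHNAK2: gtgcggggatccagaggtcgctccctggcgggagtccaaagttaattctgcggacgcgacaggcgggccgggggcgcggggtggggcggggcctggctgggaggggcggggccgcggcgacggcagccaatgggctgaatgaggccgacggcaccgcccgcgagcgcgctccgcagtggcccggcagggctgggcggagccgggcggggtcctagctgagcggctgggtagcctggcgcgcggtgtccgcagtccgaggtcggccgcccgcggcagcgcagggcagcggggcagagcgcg
The windows of ANKRD37 and WSB1 each hold a CACGTG and a further ACGTG core, and that of KCTD11 holds 2 ACGTG cores. The window of PAM holds 3 GCGTG cores, and that of AHNAK2 holds no core motif. The windows shown were picked by the result with lactate, and whether motifs go with recovery was not tested. RBPJ, INHBA, TPBG and DEPP1 rose with lactate, and their windows hold no core motif. The windows of NARF and FAM13A hold a CACGTG. NARF rose with lactate (log2 0.42) and stayed lower than in hypoxia (log2 -0.75), and FAM13A did not pass between lactate and oxamate.

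**Figure D1:**
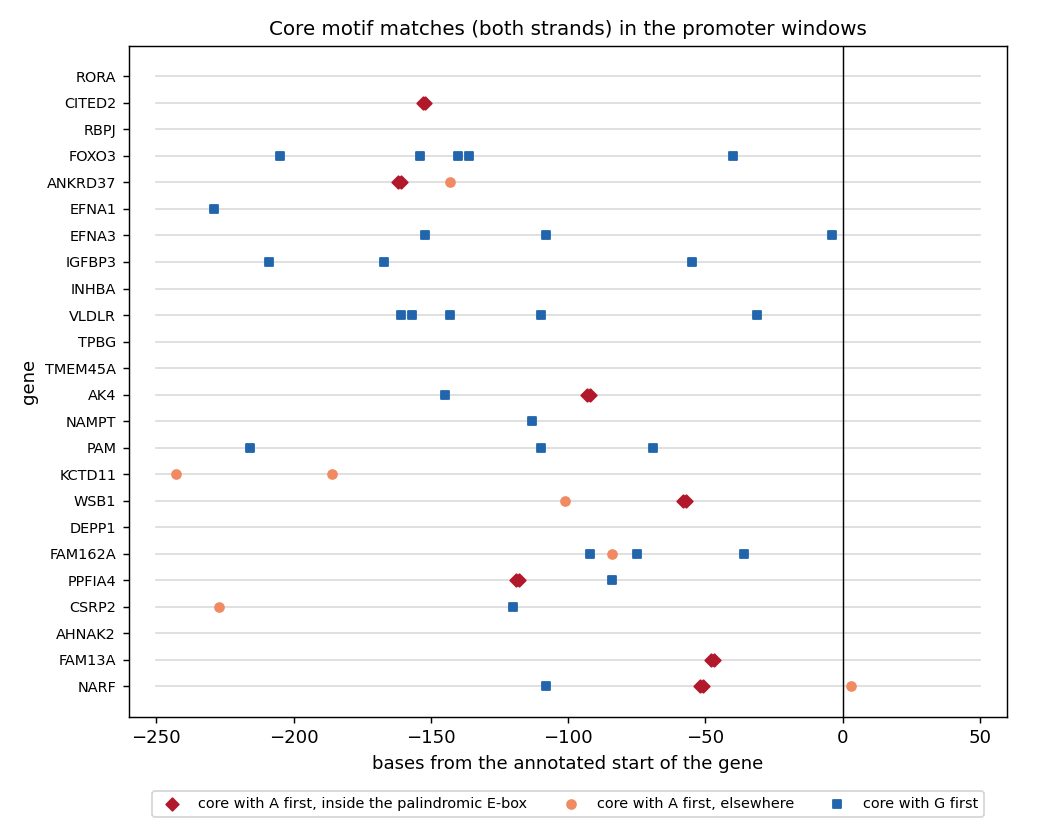
Positions of core motif matches on both strands in the promoter windows of 24 genes, as distance in bases from the annotated gene start (vertical line at 0). Diamonds are cores inside the palindromic E-box, circles other cores that begin with A and squares cores that begin with G. Windows with no symbol hold no match, as for RBPJ, DEPP1 and AHNAK2.

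Of the 32 genes, 31 passed the filter on low counts, and PPFIA4, encoding liprin-alpha 4, did not. PPFIA4 had 2 and 2 counts with lactate and oxamate and 0 in every other library. Levels are given as TMM-scaled CPM, which are not corrected for gene length and are compared only between samples of the same gene. A gene passed at an edgeR adjusted p under 0.05 over all 15554 tested genes. In hypoxia, 28 of the 31 genes were called higher than in normoxia and 1 lower, beside 36.7% and 36.8% of all tested genes (73.5% in either direction), with a median log2 fold change of 1.91. With oxamate, 28 were called lower than in hypoxia and 3 higher, beside 44.8% and 35.7% of all tested genes (80.5% in either direction), with a median of -2.03 (all genes -0.20). Against normoxia, the oxamate libraries were called higher for 14 genes and lower for 11, beside 31.9% and 40.1% of all genes (72% in either direction), with a median log2 difference of 0.03. These counts come from libraries whose results were in view when the list was drawn up, and nothing is read from them.

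**Figure D2:**
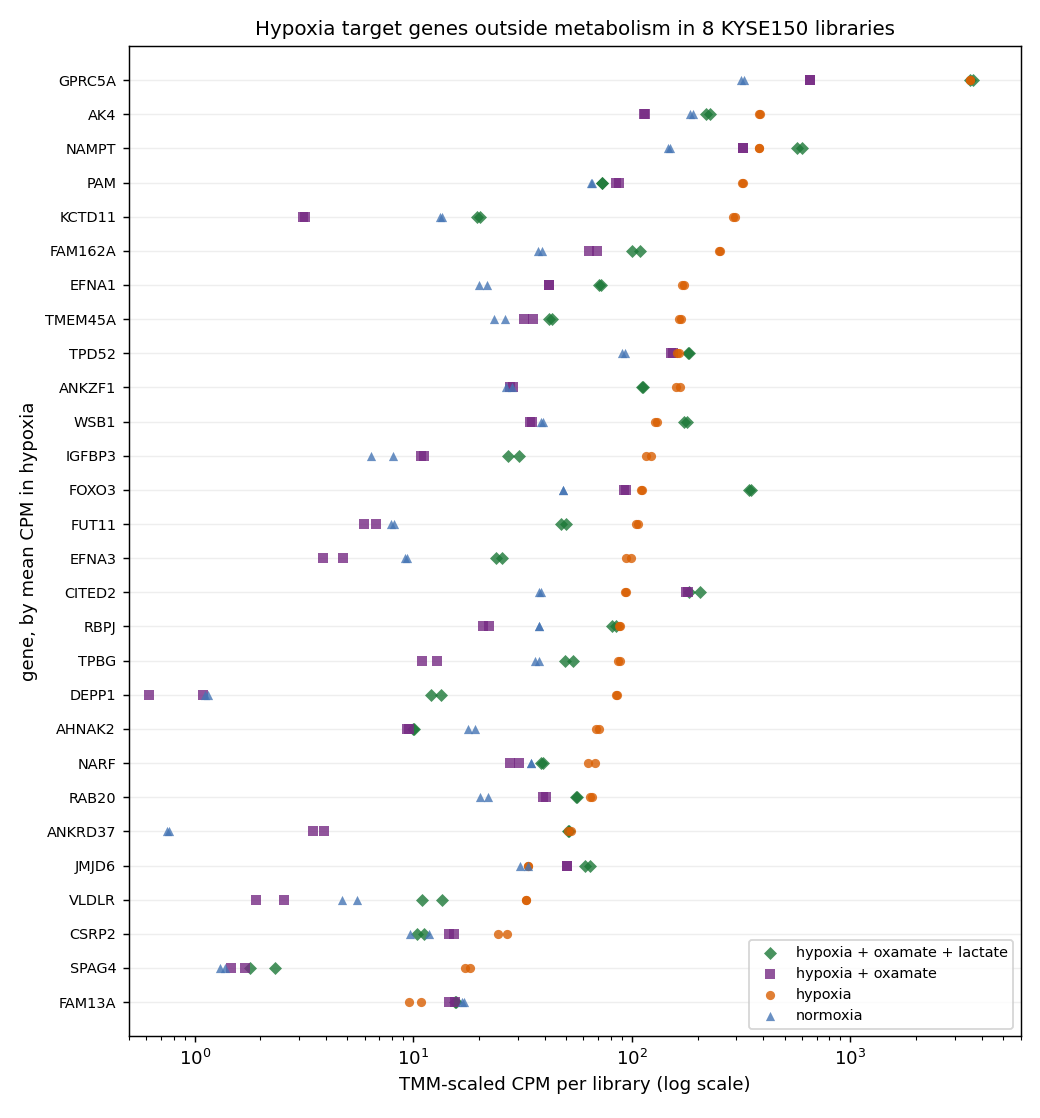
TMM-scaled CPM (log scale) of the 28 genes whose mean log2 CPM was 1 or more, in the 8 libraries, genes ordered by their mean in hypoxia. Diamonds are hypoxia with oxamate and lactate, squares hypoxia with oxamate, circles hypoxia and triangles normoxia, with a symbol for each library. GPRC5A, ANKRD37 and RBPJ show lactate symbols on or beside the hypoxia symbols, and AHNAK2 and PAM show them beside the oxamate symbols.

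The comparison of lactate with oxamate against oxamate alone asks which of these transcripts lactate raised while oxamate was present. Of the 31 genes, 25 rose and 2 fell, beside 33.2% and 31.7% of all tested genes (64.9% in either direction), and the median log2 fold change was 0.96 (all genes -0.02). Both lactate libraries lay above both oxamate libraries for 27 genes and below them for 2, beside 39.7% and 39.6% of all tested genes. The split over all genes was 5160 higher and 4927 lower, and with upper quartile scaling it was 4150 and 6340. With that scaling 22 of the 31 genes rose and 2 fell. The 25 increases ranged from small shifts such as that of CITED2 to 14.9-fold for DEPP1, leaving aside STC1, which had no counts with oxamate.

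The comparison of lactate with oxamate against hypoxia alone shows what difference to hypoxia was left. Of the 31 genes, 20 were lower and 7 higher, beside 40.2% and 38.5% of all tested genes (78.6% in either direction), with a median log2 fold change of -0.79 (all genes -0.05). Over all genes the split was 5981 higher and 6246 lower, and with upper quartile scaling it was 4683 and 7693. The 4 genes that did not pass were RBPJ, ANKRD37, GPRC5A and INHBA. These comparisons share the oxamate or the hypoxia libraries with the contrasts used for the list, and both share the lactate libraries. Low oxamate or high hypoxia values that favoured a choice also favour a rise over oxamate and a deficit to hypoxia.

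To place each gene, the distance of the lactate libraries from the oxamate mean was expressed as a share of the log2 distance between hypoxia and oxamate, for genes where that distance was at least 1. This recovered share is a description, since its parts share the oxamate libraries. It was defined for 20 of the 28 genes whose mean log2 CPM reached 1, with a median of 55.4% and a range from -12.2% (PAM) to 124% (WSB1). It was at least 90% for 4 genes (WSB1, GPRC5A, ANKRD37 and RBPJ), between 30% and 80% for 12, and under 20% for 4 (TMEM45A, SPAG4, AHNAK2 and PAM). With 3 genes of few counts added, the median over 23 genes was 56.0%, against 25.9% over the 4377 tested genes with the same minimum distance. The members, unlike other genes, were listed with hypoxia and oxamate values in view, so nothing is read from this contrast. The largest gap between the replicate values of a gene at that expression level was that of SPAG4, at 15.9% and 5.08%.

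**Figure D3:**
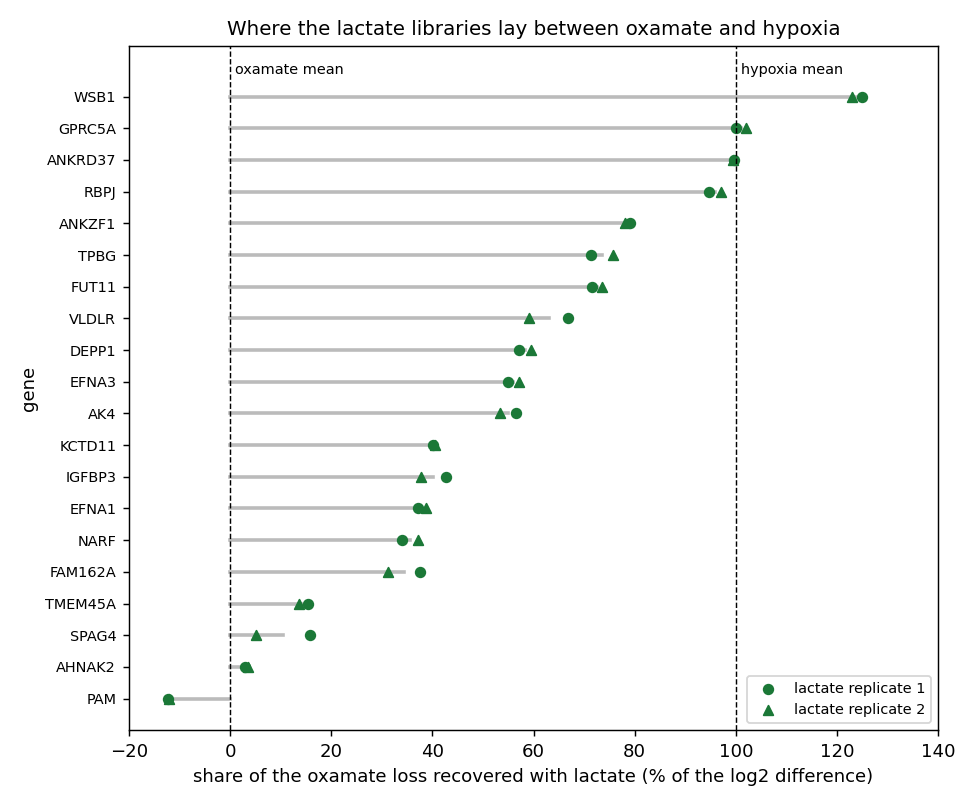
Share of the log2 difference between hypoxia and oxamate that was recovered with lactate, in percent, for 20 genes. Circles and triangles are the 2 lactate libraries, grey lines end at their mean, and dashed lines mark the oxamate mean (0) and the hypoxia mean (100). WSB1 lies past the hypoxia mean at 124% and PAM below the oxamate mean at -12.2%.

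Among the transcription and chromatin genes, 5 of 6 rose with lactate and none fell, beside 33.2% higher and 31.7% lower of all tested genes. With upper quartile scaling 3 of 6 rose, beside 4150 of the 15554 tested genes. ANKRD37, a small ankyrin repeat protein gene, was at 51.6 and 51.3 CPM with lactate and oxamate, 3.48 and 3.92 CPM with oxamate, 51.1 and 52.9 CPM in hypoxia and 0.744 and 0.759 CPM in normoxia. The lactate and hypoxia libraries overlapped, and the oxamate libraries lay far below both but above normoxia. ANKRD37 rose 13.9-fold with lactate (log2 3.80 ± 0.087, standard error, n = 2 libraries per group), and its remaining difference to hypoxia was -0.02 on the log2 scale with a 95% interval from -0.14 to 0.10. UFSP2, on the opposite strand, covers 35.2% of its exon bases. UFSP2 was at 18.5 and 15.7 CPM of library totals with oxamate, above ANKRD37, and whether counting used strand is not stated, so the low ANKRD37 levels are uncertain. With upper quartile scaling the ANKRD37 difference to hypoxia passed, at -0.27.

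RBPJ, the DNA-binding protein of Notch signalling, was at 81.5 and 84.4 CPM with lactate and oxamate, 20.8 and 22.3 CPM with oxamate, 87.8 and 88.0 CPM in hypoxia and 37.5 and 37.6 CPM in normoxia. The oxamate libraries were lower than those of normoxia, and lactate put RBPJ above normoxia and just below hypoxia. The rise with lactate was 3.85-fold (log2 1.95 ± 0.054), and the difference to hypoxia did not pass (-0.08, interval -0.17 to 0.01). It passed with upper quartile scaling (-0.34) and with the stricter count filter (-0.16).

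FOXO3, a forkhead factor of stress responses, was 1.19-fold lower with oxamate than in hypoxia and high with lactate. It was at 351 and 343 CPM with lactate and oxamate, 91.8 and 94.3 CPM with oxamate, 110 and 111 CPM in hypoxia and 48.4 and 48.4 CPM in normoxia. The lactate libraries were the highest of all 8, and FOXO3 was 3.73-fold higher than with oxamate (log2 1.90 ± 0.036, adjusted p = 5.79e-21) and 3.14-fold higher than in hypoxia (log2 1.65 ± 0.035). CITED2 encodes a protein that competes with HIF-1α for the coactivators p300 and CBP. It was higher with oxamate than in hypoxia, at 183 and 204 CPM with lactate and oxamate, 180 and 176 CPM with oxamate, 94.0 and 92.7 CPM in hypoxia and 37.5 and 38.3 CPM in normoxia. It was higher with lactate than in hypoxia (log2 1.05 ± 0.045). Its small rise over oxamate (log2 0.12 ± 0.043) depended on single libraries and on scaling. Without lactate replicate 2 it was 0.05, without oxamate replicate 1 or 2 it was 0.04 and 0.01, and without lactate replicate 1 it was 0.20. It did not pass with RLE factors (0.07), DESeq2 (0.07) or the stricter filter (0.01), and turned to -0.07 with upper quartile scaling.

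JMJD6, a JmjC-domain hydroxylase gene, also stood higher with oxamate than in hypoxia. It was at 64.1 and 60.9 CPM with lactate and oxamate, 50.3 and 50.6 CPM with oxamate, 33.6 and 33.4 CPM in hypoxia and 30.8 and 33.5 CPM in normoxia. The hypoxia and normoxia libraries overlapped. JMJD6 rose with lactate by log2 0.31 ± 0.054, which no longer passed with upper quartile scaling (0.12) and was 0.19 with the stricter filter and 0.20 without oxamate replicate 1. It was also higher than in hypoxia (log2 0.90 ± 0.055). RORA, a nuclear receptor gene, was near the detection limit, with 1 and 4 counts with lactate and oxamate, 2 and 6 with oxamate, 14 and 18 in hypoxia and 8 and 5 in normoxia. RORA did not pass between lactate and oxamate (log2 -0.48, interval -2.37 to 1.40), and leaving out 1 library gave -1.55 to 0.42. It was lower with lactate than in hypoxia (log2 -2.25 ± 0.73, adjusted p = 0.00779). That call ended with DESeq2 (-2.31), without lactate replicate 1 (-1.73) and without hypoxia replicate 2 (-2.04). RORA shares exon bases with RORA-AS1 on the opposite strand, which averaged 198% of its level over the libraries, with 0.631 and 1.2 CPM of library totals in hypoxia.

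**Figure D4:**
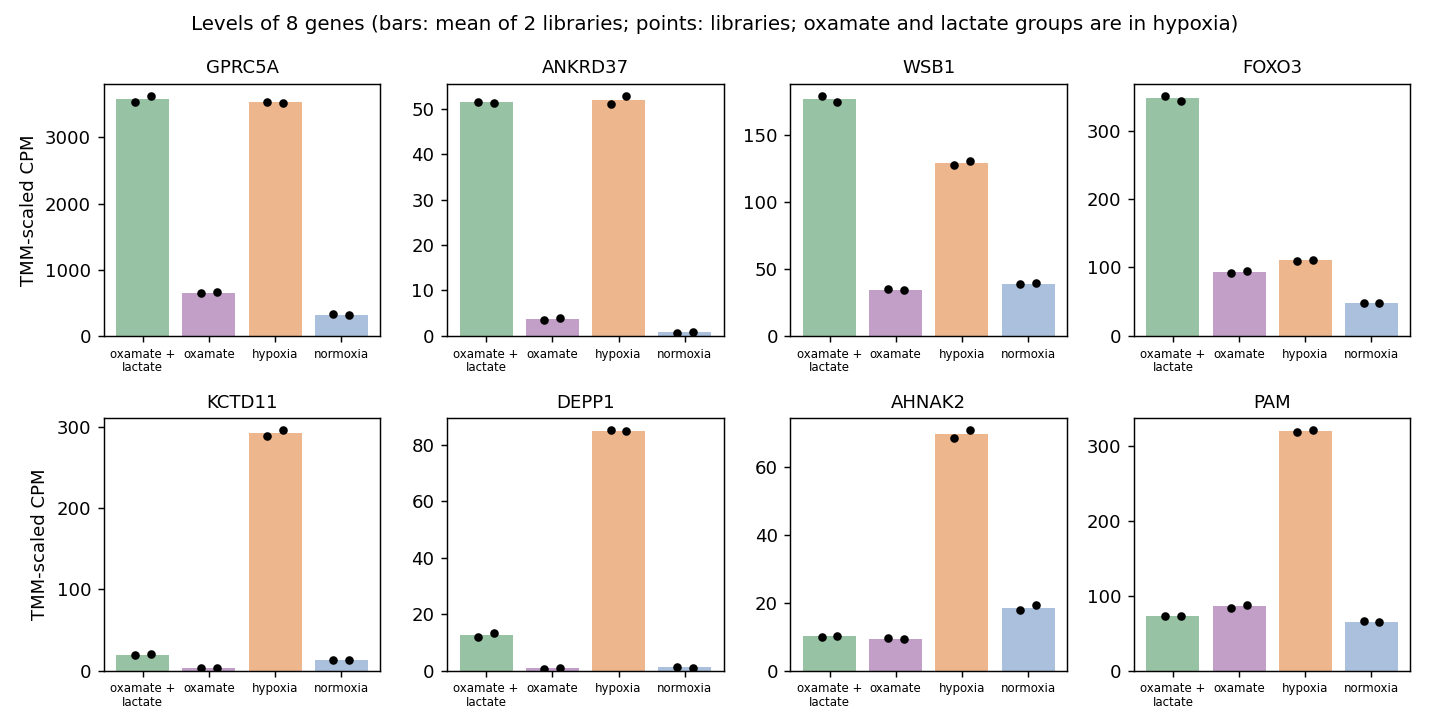
TMM-scaled CPM of 8 genes, from left to right in hypoxia with oxamate and lactate, hypoxia with oxamate, hypoxia, and normoxia (bars are means of 2 libraries, points are the libraries). GPRC5A and ANKRD37 with lactate are level with hypoxia, WSB1 and FOXO3 are above it, KCTD11 and DEPP1 are far below it, and AHNAK2 and PAM stay near their oxamate levels.

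All 5 secreted factors and surface ligands rose with lactate, beside 33.2% of all tested genes. Lower than in hypoxia were 4 of the 5, beside 40.2% of all tested genes. EFNA1 and EFNA3 encode ephrin-A ligands of Eph receptor kinases and lie on chromosome 1 of GRCh38, EFNA3 from 155078872 to 155087538 and EFNA1 from 155127460 to 155134857 in GENCODE release 29. EFNA3 was at 23.9 and 25.6 CPM with lactate and oxamate, 3.87 and 4.77 CPM with oxamate, 99.1 and 94.2 CPM in hypoxia and 9.19 and 9.36 CPM in normoxia. EFNA1 was at 70.4 and 72.1 CPM with lactate and oxamate, 41.8 and 41.7 CPM with oxamate, 173 and 169 CPM in hypoxia and 19.9 and 21.8 CPM in normoxia. With oxamate EFNA3 stood below normoxia and EFNA1 above it. EFNA3 shares 44.7% of its exon bases with AL691442.1, which was at 0.138% of its level. EFNA3 rose 5.74-fold with lactate (log2 2.52 ± 0.099) and EFNA1 1.71-fold (log2 0.77 ± 0.050), recovered shares of 56.0% and 38.0%.

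IGFBP3, which encodes a binding protein for insulin-like growth factors, was at 30.4 and 27.1 CPM with lactate and oxamate, 10.8 and 11.2 CPM with oxamate, 116 and 122 CPM in hypoxia and 8.04 and 6.42 CPM in normoxia. The 4 groups did not overlap, and lactate raised IGFBP3 by log2 1.38 ± 0.087 while leaving it 4.16-fold below hypoxia. STC1, the gene of the secreted glycoprotein stanniocalcin-1, had 13 and 10 counts with lactate and oxamate, 0 and 0 with oxamate, 69 and 64 in hypoxia and 1 and 0 in normoxia. With a floor of 3 counts set for the oxamate group, STC1 was 8.77-fold higher with lactate. The counting interval of the STC1 ratio, from the 0 counts themselves, began at 6.57. This floor and the counting intervals cover counting error only, while intervals of log2 differences come from the fitted model. The hypoxia level was 4.42 times the lactate level (exact 95% counting interval 2.82 to 7.21). INHBA, encoding the activin A subunit, had 22 and 23 counts with lactate and oxamate, 7 and 3 with oxamate, 44 and 46 in hypoxia and 26 and 14 in normoxia. INHBA rose with lactate (log2 2.34 ± 0.53, adjusted p = 0.000467), and its difference to hypoxia did not pass (-0.60, interval -1.40 to 0.20) except with upper quartile scaling (-0.86).

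All 4 receptor and membrane protein genes rose with lactate, beside 33.2% of all tested genes. GPRC5A, an orphan G protein-coupled receptor gene induced by retinoic acid, was at 3540 and 3630 CPM with lactate and oxamate, 651 and 656 CPM with oxamate, 3540 and 3520 CPM in hypoxia and 325 and 316 CPM in normoxia. Its lactate and hypoxia libraries were nearly equal, and the rise with lactate was 5.48-fold (log2 2.45 ± 0.027), beside a level with oxamate that was 5.40-fold below hypoxia. The difference to hypoxia was 0.02 (interval -0.03 to 0.08). It turned to -0.24 with upper quartile scaling and -0.06 with the stricter filter, both past the threshold, and passed at 0.05 without lactate replicate 1.

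VLDLR, a lipoprotein receptor gene, was at 13.5 and 11.0 CPM with lactate and oxamate, 2.56 and 1.90 CPM with oxamate, 32.9 and 32.8 CPM in hypoxia and 5.54 and 4.71 CPM in normoxia. TPBG, the gene of an oncofetal membrane glycoprotein of trophoblast, was at 49.5 and 54.0 CPM with lactate and oxamate, 12.9 and 11.0 CPM with oxamate, 86.8 and 88.5 CPM in hypoxia and 36.1 and 37.8 CPM in normoxia. Both stood below normoxia with oxamate and above it with lactate. VLDLR rose 5.44-fold (log2 2.44 ± 0.15) and TPBG 4.34-fold (log2 2.12 ± 0.074), and both were lower than in hypoxia (log2 -1.43 and -0.76). TMEM45A, a multi-pass membrane protein gene, was at 43.1 and 41.8 CPM with lactate and oxamate, 32.1 and 35.2 CPM with oxamate, 164 and 168 CPM in hypoxia and 26.3 and 23.5 CPM in normoxia. Lactate recovered 14.5% of its loss, and the rise (log2 0.33 ± 0.061) was 0.17 and no longer passed without oxamate replicate 1. It was 0.14 with upper quartile scaling, where it passed.

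**Figure D5:**
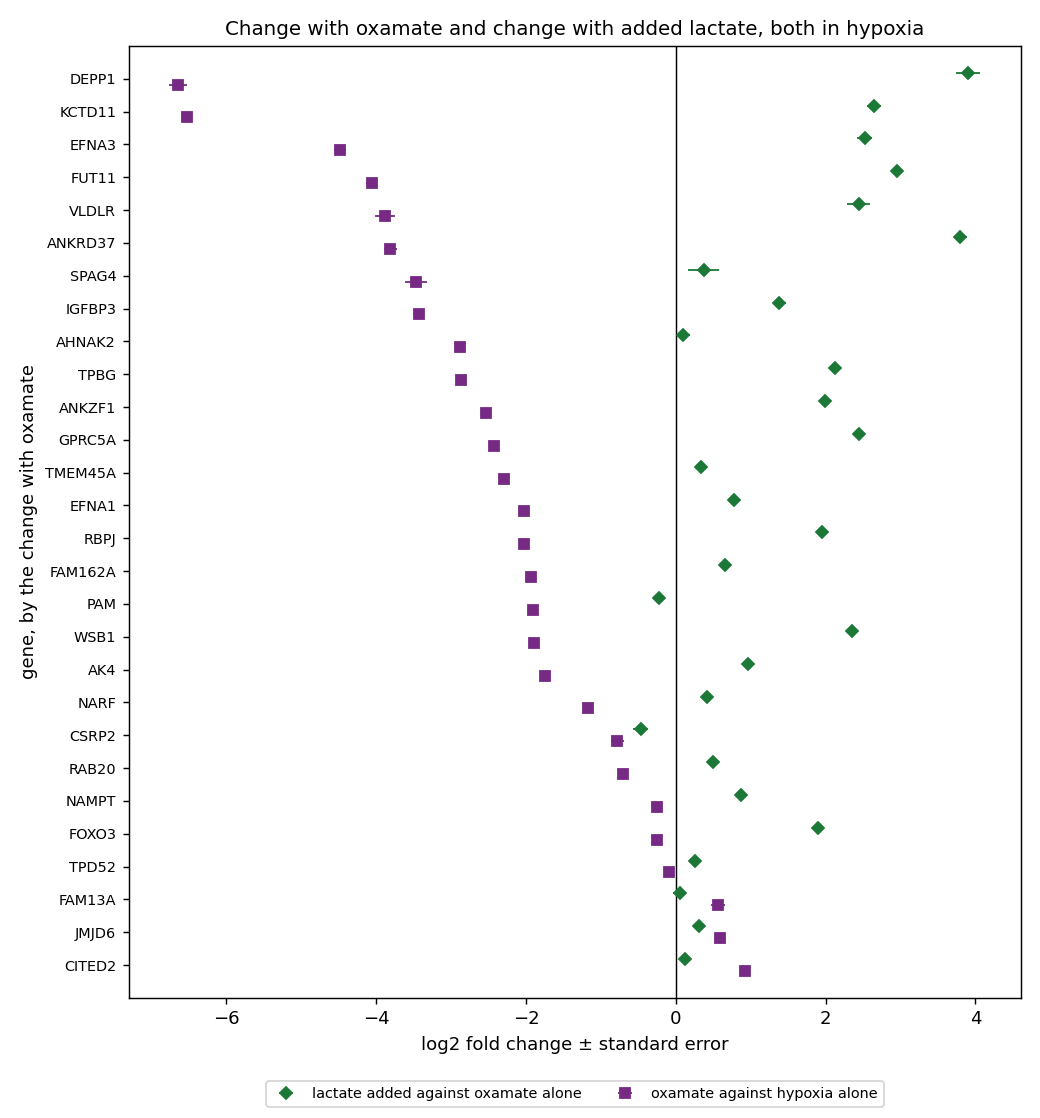
Log2 fold change ± standard error of 28 genes for lactate with oxamate against oxamate alone (diamonds) and for oxamate against hypoxia alone (squares), which share the oxamate libraries. Genes are ordered by the change with oxamate, with CITED2, JMJD6 and FAM13A at the bottom as the 3 genes higher with oxamate. CSRP2 and PAM are the 2 genes with a diamond clearly below 0.

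Of the 4 enzyme genes, 3 rose with lactate and 1 fell, beside 33.2% and 31.7% of all tested genes. FUT11, a fucosyltransferase gene, was at 47.5 and 50.1 CPM with lactate and oxamate, 5.92 and 6.72 CPM with oxamate, 104 and 107 CPM in hypoxia and 7.92 and 8.16 CPM in normoxia. It rose 7.74-fold (log2 2.95 ± 0.078) and recovered 72.6%. FUT11 shares 11.6% of its exon bases with AC022400.8 on the opposite strand. AC022400.8 had 20.2 and 20.7 CPM of library totals with lactate and oxamate and 14.1 and 17.6 CPM with oxamate, so low FUT11 levels are uncertain. AK4, encoding a mitochondrial adenylate kinase, was at 227 and 218 CPM with lactate and oxamate, 114 and 115 CPM with oxamate, 384 and 382 CPM in hypoxia and 191 and 185 CPM in normoxia. AK4 rose 1.94-fold with lactate, and stood above normoxia with lactate and below it with oxamate alone.

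NAMPT, the rate-limiting enzyme of NAD salvage, was at 603 and 569 CPM with lactate and oxamate, 322 and 321 CPM with oxamate, 380 and 383 CPM in hypoxia and 149 and 147 CPM in normoxia. Like FOXO3 it was highest with lactate, 1.82-fold above oxamate (log2 0.87 ± 0.032) and 1.54-fold above hypoxia (log2 0.62 ± 0.031, and 0.36 with upper quartile scaling). PAM, the enzyme that amidates the ends of secreted peptides, was at 73.0 and 73.2 CPM with lactate and oxamate, 84.3 and 87.3 CPM with oxamate, 319 and 321 CPM in hypoxia and 65.7 and 65.0 CPM in normoxia. The lactate libraries lay below the oxamate libraries. PAM fell by 0.23 on the log2 scale with lactate (standard error 0.041, adjusted p = 3.02e-05), and the change was -0.42 with upper quartile scaling, -0.35 with the stricter filter and -0.36 without oxamate replicate 1.

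All 5 genes of protein turnover, autophagy and cell death rose with lactate, beside 33.2% of all tested genes. DEPP1, a FOXO target linked to autophagy, was at 12 and 13.4 CPM with lactate and oxamate, 0.619 and 1.09 CPM with oxamate, 85.1 and 85.0 CPM in hypoxia and 1.15 and 1.11 CPM in normoxia. KCTD11, an adaptor of a cullin ubiquitin ligase, was at 19.6 and 20.1 CPM with lactate and oxamate, 3.14 and 3.20 CPM with oxamate, 289 and 296 CPM in hypoxia and 13.6 and 13.3 CPM in normoxia. Both had lost most of their hypoxia level with oxamate, by 99.4-fold for DEPP1 and 92.2-fold for KCTD11. DEPP1 rose 14.9-fold with lactate (log2 3.90 ± 0.16) and was still 6.65-fold below hypoxia. KCTD11 rose 6.27-fold (log2 2.65 ± 0.093) and was 14.7-fold below hypoxia. DEPP1 shares 23.3% of its exon bases with RASSF4 on the opposite strand, at 0.510 and 0.391 CPM of library totals with oxamate, so its lowest levels are uncertain.

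WSB1, a substrate receptor of a ubiquitin ligase that acts on VHL, was at 179 and 174 CPM with lactate and oxamate, 35.0 and 34.1 CPM with oxamate, 127 and 130 CPM in hypoxia and 38.3 and 39.4 CPM in normoxia. The lactate libraries exceeded those of hypoxia (log2 0.45 ± 0.038, adjusted p = 3.36e-10, and 0.20 with upper quartile scaling), after a 5.10-fold rise over oxamate. ANKZF1, which frees unfinished chains from stalled ribosomes, was at 113 and 111 CPM with lactate and oxamate, 28.6 and 27.7 CPM with oxamate, 159 and 166 CPM in hypoxia and 26.7 and 28.4 CPM in normoxia. Its oxamate and normoxia libraries overlapped, and lactate recovered 78.6% of the loss. FAM162A, a mitochondrial protein gene of hypoxic cell death, was at 109 and 100 CPM with lactate and oxamate, 63.5 and 69.0 CPM with oxamate, 251 and 253 CPM in hypoxia and 37.3 and 38.7 CPM in normoxia, a recovered share of 34.4%.

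Of the 7 tested genes of trafficking, scaffolds and cytoskeleton, 3 rose with lactate, 1 fell and 3 did not pass. Over all tested genes 33.2% rose and 31.7% fell (64.9% in either direction), so nothing is read from the counts for this role. Differences between roles were not tested. RAB20, a small GTPase gene of endosomes, was at 56.2 and 55.6 CPM with lactate and oxamate, 40.3 and 39.4 CPM with oxamate, 65.5 and 64.2 CPM in hypoxia and 20.3 and 21.9 CPM in normoxia. NARF, encoding a nuclear protein that binds prelamin A, was at 38.3 and 39.3 CPM with lactate and oxamate, 27.8 and 30.4 CPM with oxamate, 63.2 and 67.8 CPM in hypoxia and 34.4 and 34.5 CPM in normoxia. RAB20 rose by log2 0.49 ± 0.054 and NARF by 0.42 ± 0.063. These were 0.30 and 0.23 with upper quartile scaling, and NARF was 0.25 without oxamate replicate 1. Both were lower than in hypoxia, RAB20 by log2 -0.21 (-0.47 with upper quartile scaling) and NARF by -0.75. TPD52, a vesicle trafficking protein gene, was at 182 and 181 CPM with lactate and oxamate, 151 and 154 CPM with oxamate, 161 and 164 CPM in hypoxia and 92.9 and 89.9 CPM in normoxia. TPD52 rose by log2 0.25 ± 0.036, which ended with upper quartile scaling (0.06) and was 0.13 with the stricter filter and 0.14 and 0.16 without oxamate replicate 1 or 2. It was above hypoxia by log2 0.16 ± 0.035, which turned to -0.10 with upper quartile scaling and ended at 0.08 with the stricter filter.

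CSRP2, a LIM domain protein gene of the actin cytoskeleton, was at 10.4 and 11.2 CPM with lactate and oxamate, 15.4 and 14.5 CPM with oxamate, 26.9 and 24.5 CPM in hypoxia and 11.8 and 9.70 CPM in normoxia. It fell with lactate to the range of normoxia (log2 -0.47 ± 0.10, adjusted p = 0.000447). AHNAK2, a giant scaffold protein gene, was at 10.0 and 10.1 CPM with lactate and oxamate, 9.52 and 9.35 CPM with oxamate, 68.4 and 70.7 CPM in hypoxia and 17.8 and 19.2 CPM in normoxia. SPAG4, a SUN-domain protein gene of the nuclear envelope, was at 2.34 and 1.79 CPM with lactate and oxamate, 1.47 and 1.70 CPM with oxamate, 17.2 and 18.1 CPM in hypoxia and 1.38 and 1.3 CPM in normoxia. Neither passed between lactate and oxamate, with log2 differences of 0.10 (interval -0.10 to 0.29) for AHNAK2 and 0.37 (interval -0.07 to 0.81) for SPAG4, and both were lower than in hypoxia (log2 -2.79 and -3.11). The AHNAK2 difference was 0.01 and -0.01 without oxamate replicate 1 or 2 and -0.10 with upper quartile scaling. The SPAG4 difference was 0.18 and 0.57 without lactate replicate 1 or 2 and 0.16 without oxamate replicate 1. FAM13A, a gene with a RhoGAP domain, was at 15.7 and 15.5 CPM with lactate and oxamate, 14.6 and 15.5 CPM with oxamate, 9.57 and 10.8 CPM in hypoxia and 17.1 and 16.7 CPM in normoxia. Both hypoxia libraries lay below the other 6. FAM13A did not pass between lactate and oxamate (0.05, interval -0.14 to 0.23), and the value was -0.14 with upper quartile scaling and -0.10 without oxamate replicate 1. It was higher with lactate than in hypoxia (log2 0.61 ± 0.093, and 0.35 with upper quartile scaling). FAM13A-AS1, on the opposite strand, covers 6.24% of its exon bases. It had 1.19 and 1.69 CPM of library totals with lactate and oxamate, 0.170 and 0 CPM with oxamate, 5.61 and 5.76 CPM in hypoxia and 0.385 and 0.327 CPM in normoxia. It was thus highest where FAM13A was lowest, and its part in the FAM13A counts was not tested.

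Within a role the recovered shares were spread out. They ran from 34.4% (FAM162A) to 124% (WSB1) over the 5 turnover genes and from 14.5% (TMEM45A) to 101% (GPRC5A) over the 4 membrane protein genes. Of the trafficking and scaffold genes, only SPAG4, AHNAK2 and NARF had a defined share, from 3.30% to 35.6%. The differences between genes were not tested.

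Other HIF pathway genes were counted for the same comparison, lactate with oxamate against oxamate alone. Of 24 HIF targets of glucose metabolism, 20 rose and 4 fell (median log2 0.67), beside 33.2% higher and 31.7% lower of all tested genes; with upper quartile scaling 15 rose and 6 fell, and with the replicate block 20 rose and 3 fell. The hexokinase gene HK2 (3.11 ± 0.028) and the glucose transporter gene SLC2A3 (3.07 ± 0.035) rose, and the glycolytic enzyme genes ENO1 (-0.33 ± 0.025) and TPI1 (-0.28 ± 0.026) fell. LDHA, which encodes the subunit of lactate dehydrogenase that favours lactate formation, rose by 0.76 ± 0.026. Of 32 other HIF targets, 28 were tested, 24 rose and 1 fell (median 1.64). The histone demethylase gene KDM3A (2.68 ± 0.035) and DDIT4, an inhibitor of mTORC1 (2.71 ± 0.034), rose, and the lysyl hydroxylase gene PLOD1 fell (-0.28 ± 0.044). Of 12 genes of HIF subunits, hydroxylases and coactivators, 10 were tested and all 10 rose (median 1.22), 9 of them with upper quartile scaling. The oxygen-sensing hydroxylase genes EGLN1 and EGLN2 rose by 1.85 ± 0.050 and 1.84 ± 0.066. HIF1A rose by 0.77 ± 0.036, its partner ARNT by 1.49 ± 0.070 and the coactivator EP300 by 1.26 ± 0.070. With lactate these 3 stood above hypoxia alone, by log2 1.19, 0.40 and 0.68, and HIF1A was already higher with oxamate than in hypoxia (0.42). Of the 10 tested genes, 6 were higher with lactate than in hypoxia and 4 lower, beside 38.5% and 40.2% of all tested genes. HIF1A and EP300 had no defined recovered share. The median recovered share was 49.0% over 13 glucose metabolism genes, 70.3% over 21 other HIF targets and 70.0% over 6 genes of the HIF machinery. EGLN1 and EGLN3 stand in both of the last 2 lists.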

How the data were processed

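The authors deposited raw counts per gene for 8 libraries, whole numbers without normalization. Per the submitters' processing notes, FastQC 0.11.9, STAR 2.7.8a, RSEM 1.3.3 and builds hg38 and GRCh38 were used, with no role given, so the counts may be rounded estimates. Strandedness and the annotation release are not stated in the labels. The members and lists were chosen with earlier results of these data known.

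The count analysis used edgeR 4.0.16 in R 4.3.3. Genes were kept by filterByExpr (minimum count 10), which left 15554, and scaled by TMM (factors 0.879 to 1.15). One quasi-likelihood model with 4 group means was fitted to all 8 libraries (4 residual degrees of freedom). P-values are from the two-sided quasi-likelihood F test, with Benjamini-Hochberg adjustment across the 15554 genes. The standard error was derived from the F statistic. The recovered share used log2 CPM with a prior count of 2. Genes with full values were the 3 with the largest change with lactate in each role that passed and had a mean log2 CPM of 1 or more, and any that ran against the majority; values of the other members were added. From each other list, the 2 genes with the smallest p in each direction were taken, with HIF1A, ARNT, EP300 and LDHA. Positions and exon overlaps are from GENCODE release 29, and 16 of 32 genes share exon bases with another gene, 4 with a partner at 10% or more of their level. Alternatives were RLE and upper quartile factors, no filter, at least 50 counts in 2 libraries, DESeq2 1.42.0, a replicate block, the 2 groups alone and leaving out each library. The method was also run on simulated counts in which few genes changed and all groups had the same spread. The libraries here differ in both respects, so nothing is read from that run.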

Additional observations from a re-analysis of the deposited data

How the results depend on the processing

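The numbers of these genes called in the 5 comparisons stayed within 1.5 times under every alternative run. Between lactate and oxamate, 22 to 25 rose and 2 fell. Between lactate and hypoxia, 19 to 25 were lower and 6 to 8 higher. With the stricter filter 29 of the 32 genes were tested. Leaving out 1 library leaves 1 in its group, which is then assumed to vary like the others. The median recovered share was 51.0% with upper quartile scaling and 55.8% with RLE factors. Upper quartile scaling moved the median of all genes by -0.19 between lactate and oxamate, -0.26 between lactate and hypoxia and 0.11 between hypoxia and normoxia. The stricter filter moved it by -0.11 between lactate and oxamate and 0.16 between oxamate and hypoxia. With upper quartile scaling CITED2 turned between lactate and oxamate to -0.07, and GPRC5A and TPD52 between lactate and hypoxia to -0.24 and -0.10. The stricter filter turned GPRC5A to -0.06 in that comparison. TPD52 between oxamate and hypoxia (-0.09) was 0.01 in a fit of the 2 groups alone and 0.03 and 0.00 without oxamate replicate 1 or 2. FOXO3 and NAMPT between oxamate and hypoxia (-0.25 each) were -0.12 to -0.16 in several alternatives. The cause was not tested. With the replicate number as a block, 25 genes rose and 2 fell between lactate and oxamate, and 20 were lower and 7 higher between lactate and hypoxia, with no call changed. Deviations of same-numbered libraries correlated between -0.0502 and 0.0118 over genes, so the numbers do not show a pairing. Depth limits RORA, STC1 and INHBA, whose counts in a library reached at most 69, and PPFIA4, which was not tested.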
